A study of Mus musculus with 6 samples.

Results

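Skeletal muscle is the tissue that makes up most of the body of the tongue, and 40 of its genes were followed here in bulk RNA from mouse tongue tumours. The genes were chosen by name, as components of the contractile apparatus, of excitation-contraction coupling and of muscle energy supply. All 40 were among the 18437 genes of the deposited table, and 39 passed the filter on low values. Myh7 did not. The tumours were grown by injecting 4MOSC1 cells, which derive from a murine oral squamous cell carcinoma, into the tongues of C57BL/6 mice. One group of 3 libraries came from control cells (4MOSC1-con), and the other 3 came from cells made to overexpress LIGHT (4MOSC1-LIGHT), a ligand of the TNF superfamily whose gene is Tnfsf14. The labels give neither the age of the mice nor the interval after injection, and they tie no library to an animal. The p-values therefore measure the spread between these specimens. The libraries are called control 1 to 3 and LIGHT 1 to 3 after the replicate numbers of the labels.

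A muscle fibre contracts when thick filaments of myosin pull on thin filaments of actin, tropomyosin and troponin within the sarcomere. The trigger is calcium, released from the sarcoplasmic reticulum by the ryanodine receptor after the voltage sensor in the transverse tubule has moved, and taken up again by a calcium pump. Fast and slow fibres build the same machine from different isoforms of myosin, troponin and myosin-binding protein, and adult fast fibres are divided by their myosin heavy chain into types 2A, 2X and 2B. The mouse tongue is known as a predominantly fast muscle.

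Values are TPM, in which each gene's share of the transcripts is corrected for its length. TPM do not keep the sequencing depth, which is therefore unknown here. Each library had 12713 to 13271 genes at 1 TPM or more. In bulk tissue, fewer cells of a type and less RNA per cell cannot be told apart, and TPM do not show whether a transcript came from the host tongue or from the injected cells. Of cardiac markers, the heart myosin gene Myh6, the slow and cardiac light chain gene Myl3 and the cardiac release channel Ryr2 did not exceed 0.22 TPM in any library. The atrial light chain gene Myl7 was higher, at 5.84 to 17.0 TPM, as was the cardiac actin gene Actc1, at 2.20 to 15.3 TPM. Other genes known from slow or cardiac muscle were present, such as Csrp3 at 83.5 to 163 TPM, Tnnt2 at 24.7 to 39.9 TPM and Myoz2 at 14.8 to 32.7 TPM. The 15 slow or cardiac genes outside the set summed to 302 to 589 TPM in control tumours and 263 to 361 TPM in LIGHT tumours. Nppb alone made 308, 103 and 72.7 TPM of this in control tumours and 59.9, 35.5 and 32.8 TPM in LIGHT tumours. The sums therefore do not give the direction of the other genes of that list. The smooth muscle markers Myh11, Lmod1 and Myocd did not exceed 1.23 TPM, while the 9 smooth muscle markers together summed to between 63.1 and 118 TPM, of which Acta2 made 18.0 to 58.6 TPM.

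The summed level of the muscle genes varied widely within each group. The 40 genes summed to 7440, 4407 and 4785 TPM in control 1, 2 and 3 and to 6906, 11753 and 8197 TPM in LIGHT 1, 2 and 3. Control 1 thus lay above LIGHT 1, and the groups overlapped. The control mean was 5544 ± 1653 TPM and the LIGHT mean 8952 ± 2510 TPM (SD, n = 3 each), a ratio of 1.61. The ratio was 1.36 without LIGHT 2 and 1.95 without control 1. As a share of all TPM the 40 genes made up 0.744%, 0.441% and 0.478% in control tumours and 0.691%, 1.18% and 0.82% in LIGHT tumours.

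**Figure D1:**
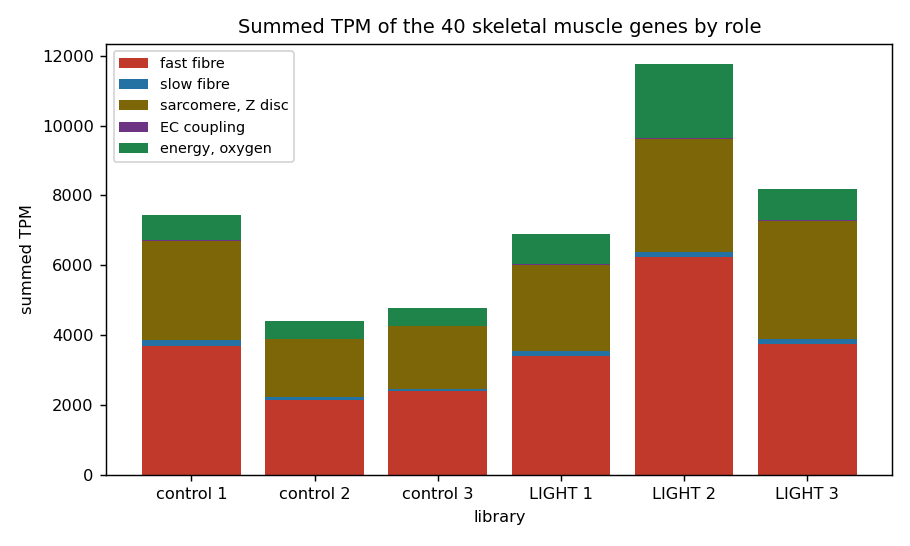
Summed TPM of the 40 skeletal muscle genes in each library (bars), stacked by the role of the genes, with EC coupling standing for excitation-contraction coupling. Control 2 and control 3 have the lowest sums (4407 and 4785 TPM) and LIGHT 2 the highest (11753 TPM), with control 1 above LIGHT 1.

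The order of the control libraries was shared by most genes of the set, and that of the LIGHT libraries by fewer. In 35 of the 39 tested genes control 2 and control 3 were both below the other 4 libraries, a pattern held by 18.2% of all genes tested. Control 1 was the highest control library in 38 of the 39, against 52.5% of all genes. LIGHT 2 was the highest LIGHT library in 25, against 18.1% of all genes, and control 1 lay above LIGHT 1 in 21. Centred on each gene's own mean, the median gene of the set stood at 0.11, -0.58 and -0.48 in control 1 to 3 and at 0.07, 0.65 and 0.15 in LIGHT 1 to 3 on the log2(TPM + 1) scale. The genes nearest to this median profile were Trdn, Myot, Actn2, Tnnt3 and Tnni2, at root mean square distances of 0.06 to 0.10 over the 6 libraries. The farthest were Pvalb (0.91), Mybpc2 (0.73), Myh2 (0.67), Ckmt2 (0.51) and Tnnc1 (0.50).

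**Figure D2:**
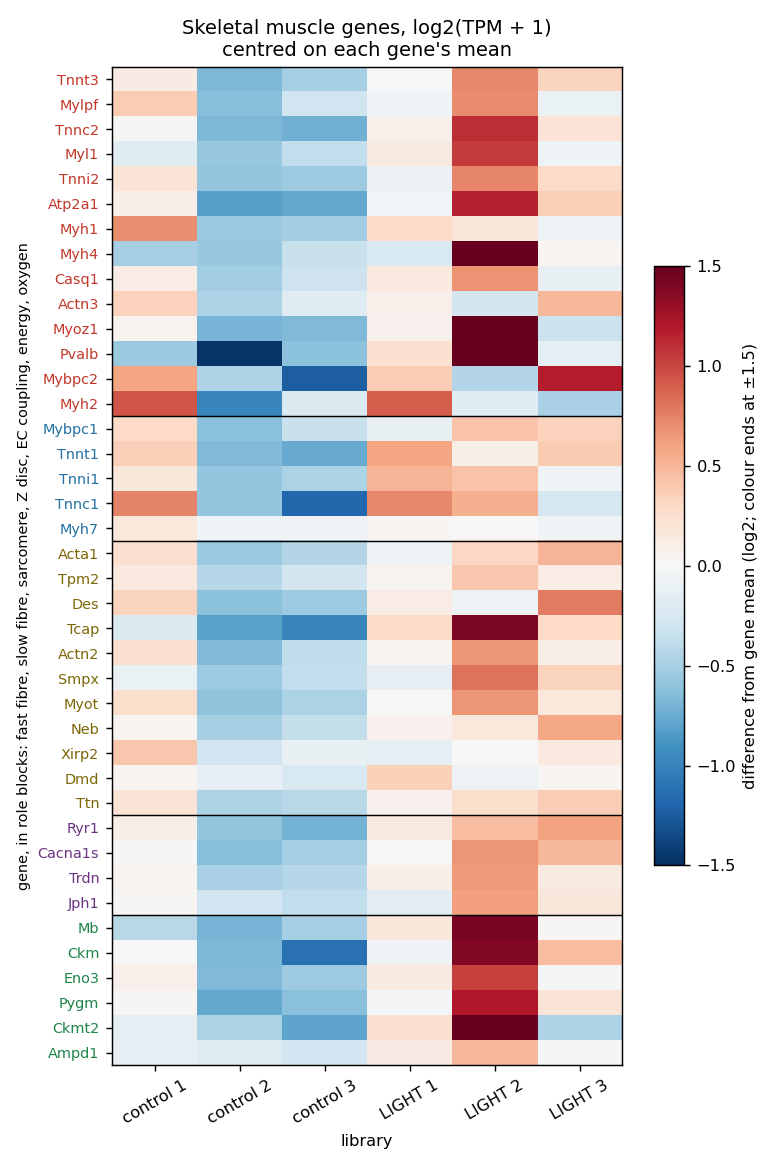
Each row is 1 of the 40 genes and each column a library; colour is log2(TPM + 1) minus the gene's mean over the 6 libraries, and horizontal lines separate the role blocks. Control 2 and control 3 are low in nearly every row, and LIGHT 2 is high in the energy genes and in Myh4, Myoz1 and Pvalb but not in Myh2, Mybpc2, Actn3 or Des.

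Of the thin and thick filament genes, skeletal actin was the most abundant. Acta1, which encodes it, was at 1672, 952 and 1032 TPM in control tumours and 1343, 1744 and 1997 TPM in LIGHT tumours. Tpm2, the beta-tropomyosin gene, was at 436, 294 and 327 TPM in control tumours and 405, 522 and 424 TPM in LIGHT tumours. Des encodes desmin, the intermediate filament that links sarcomeres side by side, and was at 432, 223 and 233 TPM against 368, 323 and 588 TPM. All 3 genes overlapped between the groups, with control 1 inside the LIGHT range. LIGHT 3, not LIGHT 2, was the highest library for Acta1 and Des. Actn2, the alpha-actinin of the Z disc, was at 70.0, 37.2 and 45.3 TPM in control tumours and 60.3, 94.6 and 63.6 TPM in LIGHT tumours. Of the other Z disc and scaffold genes, Myot, Smpx, Neb, Xirp2, Dmd and Ttn had 6-library means from 4.53 TPM (Ttn, titin) to 50.1 TPM (Smpx).

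Tcap encodes telethonin, the small protein that caps titin at the Z disc, and showed the smallest p of the set. It was at 119, 78.7 and 70.0 TPM in control tumours and 168, 371 and 171 TPM in LIGHT tumours, so the groups did not overlap. The means were 89.3 ± 26.3 and 237 ± 116 TPM, a rise of 1.33 on the log2 scale (95% interval 0.58 to 2.08, limma adjusted p = 0.0246). The call was lost without control 2 (adjusted p = 0.0725), without control 3 (0.082) and with robust variance estimation (0.0642), and it held in the other 13 of 16 settings.

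Calcium handling held both other calls. Ryr1, the calcium release channel of the sarcoplasmic reticulum, was at 12.2, 7.24 and 6.59 TPM in control tumours and 12.6, 16.1 and 17.9 TPM in LIGHT tumours. Its log2 fold change was 0.80 (SE 0.22, limma adjusted p = 0.0364). Cacna1s, the voltage sensor that opens it, was at 6.07, 3.60 and 4.03 TPM against 6.20, 10.4 and 9.04 TPM, with a log2 fold change of 0.78 and an SE of 0.22 (limma adjusted p = 0.0381). In both genes the lowest LIGHT library, LIGHT 1, lay just above control 1. Of 16 other settings 8 ended each call, including TMM scaling (adjusted p = 0.0539 for Ryr1 and 0.066 for Cacna1s) and the omission of control 2, control 3, LIGHT 2 or LIGHT 3 (adjusted p from 0.0936 to 0.116). Trdn, which anchors calsequestrin to the release channel, was at 5.30, 3.39 and 3.58 TPM in control tumours and 5.57, 8.54 and 5.77 TPM in LIGHT tumours, and it was not called (limma adjusted p = 0.0681). Jph1, which tethers the reticulum to the transverse tubule, was at 2.93, 2.19 and 2.01 TPM against 2.48, 4.93 and 3.37 TPM, with overlapping groups. Atp2a1, the fast-fibre calcium pump, was at 243, 129 and 133 TPM against 221, 507 and 291 TPM, and Casq1, the calcium buffer of the reticulum, had means of 33.3 and 47.1 TPM.

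Few muscle genes passed the threshold in the comparison of LIGHT with control tumours. With limma on log2(TPM + 1) over the 13167 genes tested, Tcap, Ryr1 and Cacna1s rose and 0 of the 39 genes fell, while 17.7% of all genes tested were called higher and 5.41% lower. At an unadjusted p under 0.05, 20 of the 39 were higher and 0 lower, against 26.9% and 9.9% of all genes. The mean log2 value was higher in LIGHT tumours for 38 of the 39, against 62.2% of all genes, Xirp2 being at a log2 fold change of -0.01, and the median log2 fold change was 0.62 (median SE 0.26), against 0.09 (0.12) for all genes tested. The 3 LIGHT libraries lay above the 3 control libraries in 11 of the 39 genes, against 29.6% of all genes, and below them in 0, against 11.6%.

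The count of calls moved with the library left out. Without control 1, 21 of the 39 genes were called higher, against 14% of all genes tested, and the median log2 fold change was 0.84. Without control 2 or control 3 the limma count was 0 in each case, against 12% and 9.87% of all genes, with 5 genes at an unadjusted p under 0.05. With both control 1 and LIGHT 2 left out, an alternative chosen after seeing the data, 19 of the 39 were called, against 10.1% of all genes. Without LIGHT 1, 8 were called, against 14.6%. Without LIGHT 2 or LIGHT 3 the count was 2 in each case, against 11.9% and 8.86%.

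**Figure D3:**
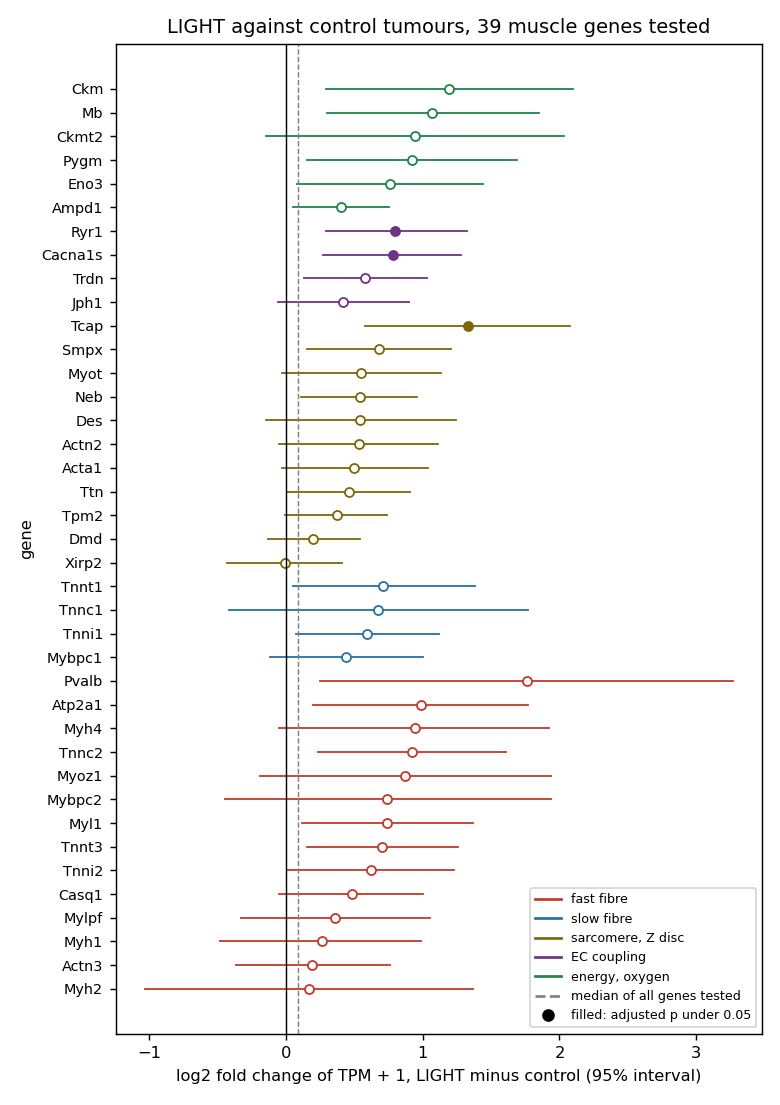
Log2 fold change of TPM + 1, LIGHT minus control, for the 39 muscle genes tested (points) with 95% intervals (lines), coloured by role and filled where the limma adjusted p was under 0.05. Only Tcap, Ryr1 and Cacna1s are filled, and 38 of the 39 points lie to the right of 0, around a median of 0.62 against 0.09 for all genes tested (dashed line).

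Fast isoforms far exceeded slow ones in each of the 6 libraries. The 14 fast-fibre genes summed to 3703, 2150 and 2387 TPM in control tumours and 3405, 6238 and 3745 TPM in LIGHT tumours. The 5 slow-fibre genes summed to 149, 73.1 and 76.7 TPM against 147, 147 and 137 TPM. LIGHT 2 thus exceeded the mean of the other LIGHT libraries 1.75 times in the fast sum but 1.03 times in the slow sum. The fast to slow ratio was 24.9, 29.4 and 31.1 in control tumours and 23.1, 42.4 and 27.3 in LIGHT tumours, with means of 28.5 ± 3.21 and 31.0 ± 10.2 (SD, n = 3 each). Without LIGHT 2 the LIGHT mean was 0.886 of the control mean, and with it 1.09, so the direction between groups rested on LIGHT 2.

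Troponin, the calcium switch of the thin filament, gave matched pairs of fast and slow genes. For troponin C, the calcium-binding subunit, the fast gene Tnnc2 was at 559, 346 and 336 TPM in control tumours and 581, 1191 and 636 TPM in LIGHT tumours. The slow and cardiac gene Tnnc1 was at 22.5, 8.37 and 5.17 TPM against 22.1, 19.2 and 10.8 TPM. The Tnnc2 values did not overlap between the groups (limma adjusted p = 0.062), whereas Tnnc1 was high in control 1 and LIGHT 1 alike. For the inhibitory subunit, the fast gene Tnni2 was at 523, 299 and 309 TPM against 426, 749 and 552 TPM, and the slow gene Tnni1 at 19.5, 11.3 and 12.1 TPM against 25.1, 23.7 and 16.6 TPM. For the tropomyosin-binding subunit, the fast gene Tnnt3 was at 795, 458 and 518 TPM against 732, 1208 and 922 TPM, and the slow gene Tnnt1 at 46.3, 22.3 and 20.9 TPM against 54.9, 38.2 and 47.5 TPM. LIGHT 1 had the lowest fast to slow ratio of the LIGHT libraries in all 3 pairs, at 26.3 for troponin C, 17.0 for troponin I and 13.3 for troponin T. Tnni2 and Tnnt3 are near neighbours on chromosome 7, from 142441808 to 142516009 with a gap of 54425 bases (GRCm38), and both followed the median profile closely.

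The light chains and binding proteins of the thick filament were also mostly fast. Mylpf, the fast regulatory light chain, was at 790, 389 and 492 TPM in control tumours and 577, 987 and 563 TPM in LIGHT tumours. Myl1, the fast essential light chain, was at 457, 350 and 400 TPM against 568, 1074 and 495 TPM. Control 1 lay above LIGHT 1 and LIGHT 3 for Mylpf but below all LIGHT libraries for Myl1. Myosin-binding protein C went the other way, as the slow gene Mybpc1 was the more abundant at 60.2, 31.1 and 38.5 TPM against 45.0, 65.8 and 62.2 TPM. Mybpc1 made 43.3 of the mean slow sum of 99.5 TPM in control tumours and 57.6 of 144 TPM in LIGHT tumours. The fast to slow ratio of the sums thus depends in part on this gene. The fast gene Mybpc2 was at 15.7, 7.04 and 3.72 TPM against 13.5, 7.21 and 24.2 TPM, and LIGHT 2 was its lowest LIGHT library. The slow myosin light chains Myl2 and Myl3, outside the set, did not exceed 3.05 and 0.22 TPM.

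The makeup of the myosin heavy chains differed between libraries. Myh1, the type 2X gene, was at 166, 68.5 and 70.6 TPM in control tumours and 124, 115 and 96.5 TPM in LIGHT tumours. Myh4, the type 2B gene, was at 42.2, 40.2 and 47.7 TPM in control tumours and 51.1, 186 and 61.2 TPM in LIGHT tumours. Myh2, the type 2A gene, was at 6.50, 0.97 and 2.34 TPM against 6.32, 2.43 and 1.78 TPM. Myh7, the slow gene, did not exceed 0.18 TPM in any library. Control 1, high in most muscle genes, was not high in Myh4, whereas LIGHT 2 was high in Myh4 and unremarkable in Myh1. Of the summed TPM of these 4 genes Myh4 made 19.6%, 36.6% and 39.5% in control tumours and 28.2%, 61.3% and 38.4% in LIGHT tumours, and LIGHT 2 was the only library with more Myh4 than Myh1. The LIGHT against control tests missed the threshold for Myh4 (log2 fold change 0.94, 95% interval -0.05 to 1.92, limma adjusted p = 0.154), Myh1 (0.26, -0.48 to 0.99, 0.598) and Myh2 (0.17, -1.03 to 1.37, 0.845). Close paralogs such as these may compete for the same reads, so the split between them is uncertain.

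**Figure D4:**
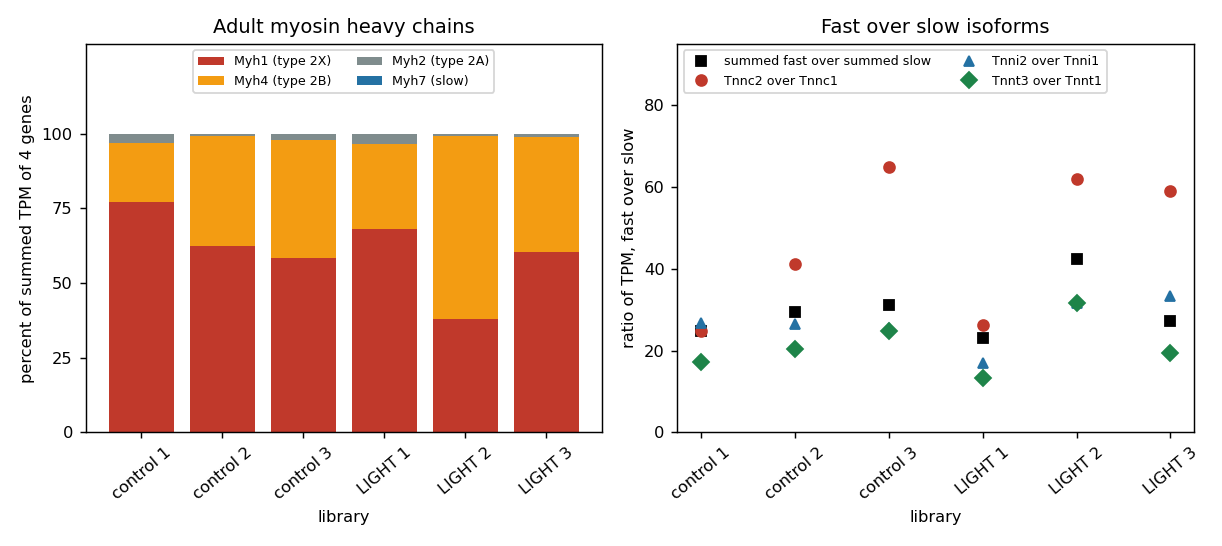
Left, percent of the summed TPM of the 4 adult myosin heavy chain genes held by each, per library (the Myh7 share, under 0.1%, is too thin to see). Right, TPM of fast over slow isoforms per library for 3 troponin pairs and for the summed fast and slow genes; LIGHT 2 has the highest summed ratio (42.4) and LIGHT 1 the lowest (23.1).

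Myh2, Myh1 and Myh4 stand side by side in that order on chromosome 11, from 67171027 to 67260446 on the plus strand (GRCm38), with gaps of 2534 and 13453 bases. The 250 bases before the RefSeq start of each are shown because these neighbours diverged between libraries, with Actn2 as a gene that kept close to the median profile. Sequences are from RefSeq on GRCm38.p6, 5′ to 3′ on the strand of the gene. Capitals mark E-boxes, any match to CANNTG, a broad pattern that includes the sites of MyoD-family factors, and matches to the MEF2 consensus. Both motifs read the same on either strand, and no match of one overlaps a match of the other in these windows.
Myh2, chr11:67170777-67171026, plus strand: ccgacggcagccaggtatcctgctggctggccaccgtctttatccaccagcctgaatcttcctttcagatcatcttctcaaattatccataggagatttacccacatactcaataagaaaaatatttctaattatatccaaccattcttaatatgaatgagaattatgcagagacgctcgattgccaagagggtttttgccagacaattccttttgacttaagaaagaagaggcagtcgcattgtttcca
Myh1, chr11:67199852-67200101, plus strand: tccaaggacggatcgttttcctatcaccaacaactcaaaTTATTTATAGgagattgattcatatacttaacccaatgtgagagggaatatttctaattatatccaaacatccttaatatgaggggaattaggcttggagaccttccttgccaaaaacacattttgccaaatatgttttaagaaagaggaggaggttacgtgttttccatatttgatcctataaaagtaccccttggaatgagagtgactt
Myh4, chr11:67237562-67237811, plus strand: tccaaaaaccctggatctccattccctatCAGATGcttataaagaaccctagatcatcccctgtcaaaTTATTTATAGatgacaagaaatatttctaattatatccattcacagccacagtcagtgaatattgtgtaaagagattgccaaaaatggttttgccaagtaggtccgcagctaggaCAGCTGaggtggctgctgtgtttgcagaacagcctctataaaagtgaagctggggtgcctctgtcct
Actn2, chr13:12340733-12340982, minus strand: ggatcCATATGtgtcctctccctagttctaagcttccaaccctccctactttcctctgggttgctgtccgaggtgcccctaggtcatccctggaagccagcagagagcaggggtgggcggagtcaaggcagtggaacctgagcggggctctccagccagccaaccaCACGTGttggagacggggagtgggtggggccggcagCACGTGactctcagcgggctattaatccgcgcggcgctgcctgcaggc
Myh1 and Myh4 share the same MEF2 match, TTATTTATAG, and the Myh2 window holds none. Myh4 alone of the 3 myosin windows holds E-boxes, 2 of them, and the Actn2 window holds 3. Those of Myh4 are CAGATG and CAGCTG, and those of Actn2 are CATATG and, at 2 places, CACGTG. The counts are of the broad pattern only. The GENCODE gene start of Myh4 lies 217 bases downstream of the RefSeq start, and that of Myh2 coincides with it. For Myh1 and Actn2 the GENCODE gene begins 50 and 28 bases further upstream than the RefSeq start, so the last bases of those windows lie within it. Promoter windows were in the RefSeq table for 30 of the 40 genes. At least 1 E-box was found in 86.7% of these, against 69.3% of all 27025 genes in the table, and a MEF2 match in 20%, against 3.42%. Besides Myh1 and Myh4 the MEF2 matches were in Dmd, Pvalb, Ttn and Xirp2. These are descriptions of letters in a window, not of binding.

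Genes of energy and oxygen supply had the widest spread of the 5 role groups. Their 6 members summed to 717, 508 and 514 TPM in control tumours and 876, 2107 and 902 TPM in LIGHT tumours, and LIGHT 2 exceeded the mean of the other LIGHT libraries 2.37 times. Mb, myoglobin, the oxygen store of muscle, was at 314, 257 and 295 TPM against 469, 1121 and 424 TPM. Its groups did not overlap, and it stood close to the threshold (log2 fold change 1.07, SE 0.33, limma adjusted p = 0.054). Ckm, the cytosolic muscle creatine kinase that regenerates ATP, was at 215, 134 and 98.3 TPM against 206, 562 and 296 TPM (log2 fold change 1.19, limma adjusted p = 0.0634). Ckmt2, the mitochondrial creatine kinase of muscle, was at 27.4, 21.7 and 17.1 TPM against 36.0, 96.8 and 21.8 TPM. LIGHT 3 here lay within the control range, LIGHT 1 lay above it and LIGHT 2 was the highest library. Eno3, the muscle enolase of glycolysis, was at 111, 66.5 and 71.9 TPM against 116, 216 and 104 TPM. Pygm, the muscle glycogen phosphorylase, was at 46.6, 26.4 and 29.2 TPM against 45.3, 107 and 52.7 TPM. Ampd1, the muscle AMP deaminase, had means of 2.80 and 4.08 TPM, with the groups apart (limma adjusted p = 0.0922).

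Pvalb, the calcium buffer parvalbumin of the fastest fibres, varied most. It was at 5.96, 2.71 and 5.73 TPM in control tumours and 11.0, 59.6 and 8.30 TPM in LIGHT tumours. The groups did not overlap, yet the mean of 26.3 ± 28.9 TPM in LIGHT tumours had an SD larger than itself because of LIGHT 2 (log2 fold change 1.76, SE 0.65, limma adjusted p = 0.0912). Myoz1, a Z disc protein of fast fibres, was likewise 3.36 times the mean of the other LIGHT libraries in LIGHT 2. Actn3, the alpha-actinin of fast fibres, was instead at 30.1, 23.4 and 40.7 TPM in LIGHT 1 to 3, lowest in LIGHT 2. High values in LIGHT 2 therefore did not extend to every fast-fibre gene.

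Transcript length moved with the standing of LIGHT 2. Across the 39 genes, Spearman's rho between the longest coding transcript and the ratio of LIGHT 2 to the mean of LIGHT 1 and 3 was -0.45, and across 12810 tested genes with a length it was -0.44; genes of a library are not independent replicates. In the class under 1000 bases the median ratio was 1.84 for 6 muscle genes, with Pvalb and Tcap among them, and 1.07 for all genes. From 5000 bases up it was 1.03 for 9 muscle genes and 0.842 for all genes. In each length class the median ratio was higher for the muscle genes. Myh4 and Myh1, of nearly equal length at 6016 and 6081 bases, had ratios of 3.31 and 1.05. For control 1 against the other control libraries the rho was -0.01 in the muscle genes and 0.25 in all genes, and the class medians of the muscle genes ran from 1.59 to 1.70. The part of transcript length in the LIGHT 2 values was not tested.

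**Figure D5:**
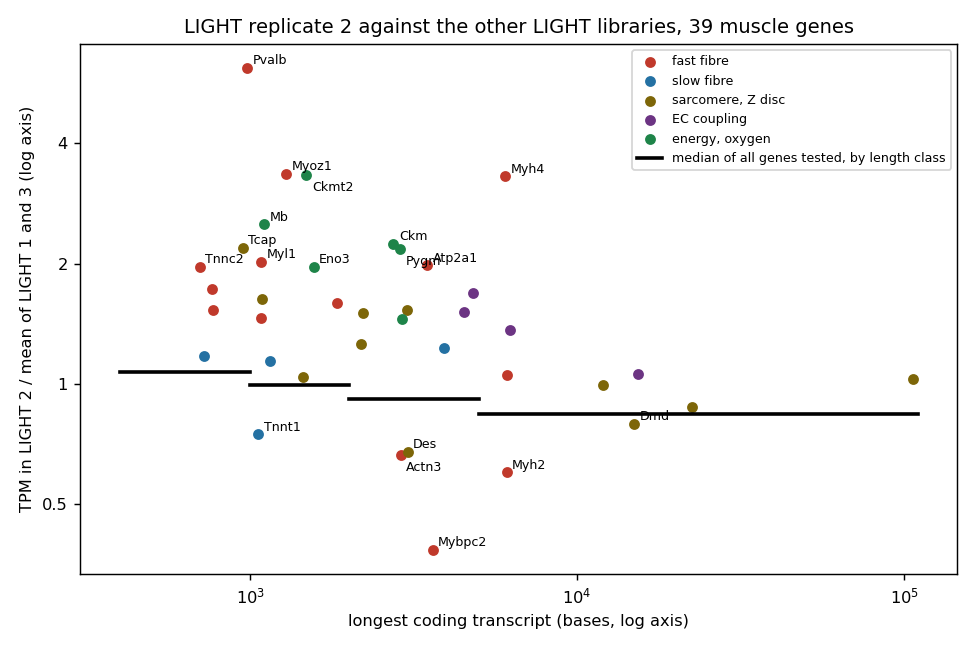
TPM in LIGHT 2 over the mean of LIGHT 1 and LIGHT 3 (log axis) against the longest coding transcript of each gene (log axis) for the 39 muscle genes tested, coloured by role; black bars are medians of all genes tested in 4 length classes. The all-gene medians step down from 1.07 to 0.842, and Pvalb (6.18), Ckmt2, Myoz1 and Myh4 stand highest.

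Other skeletal muscle genes came from a list of 43 outside the set. Of 42 tested 13 rose and 0 fell, against 17.7% and 5.41% of all genes, whereas 3 of the 39 genes of the set rose. The median log2 fold change of the 42 was 0.65, against 0.09 for all genes tested. Control 2 and control 3 were lowest in 35 of them, against 18.2% of all genes. Cox8b, a muscle form of a cytochrome c oxidase subunit, was at 204, 204 and 188 TPM in control tumours and 305, 890 and 430 TPM in LIGHT tumours and rose (log2 fold change 1.30, limma adjusted p = 0.0301). Cox6a2, another such subunit, rose from 171 ± 61.1 to 347 ± 110 TPM (limma adjusted p = 0.0403). Its groups overlapped, with control 1 at 240 TPM above LIGHT 1 at 236 TPM. Sln, sarcolipin, a small inhibitor of the calcium pump, had means of 212 and 361 TPM (limma adjusted p = 0.0749). Cox7a1 was at 96.1, 102 and 74.4 TPM against 139, 500 and 131 TPM (limma adjusted p = 0.105), again with LIGHT 2 far above the others. Among 10153 genes outside the set with a mean of at least 5 TPM, the 15 nearest to the median profile were Art3, Myom1, Srl, Pde4dip, Tpm1, Ldb3, Mef2c, Apobec2, Got1, Cpt1b, Sh3bgr, Tmod4, Hspb6, Sypl2 and Tmod1. Their root mean square distances ran from 0.07 to 0.14 over the 6 libraries. The list of other muscle genes held 7 of these 15, among them Myom1, an M-band protein, and Ldb3, a Z disc protein. Tpm1, alpha-tropomyosin, was the most abundant at 556, 372 and 377 TPM against 657, 822 and 603 TPM.

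Regulators and immature-muscle genes were present at lower levels and mostly did not peak in LIGHT 2. LIGHT 2 was the highest LIGHT library in 1 of 8 tested regulators and in 1 of 9 tested embryonic and denervation genes. Among all genes tested that share was 18.1%, and nothing particular to these lists is read from the counts. Myf6, a myogenic factor of differentiated fibres, was at 38.9, 17.5 and 31.5 TPM in control tumours and 23.2, 29.8 and 51.2 TPM in LIGHT tumours. Myog, myogenin, the factor of differentiating myoblasts, was at 25.5, 17.1 and 12.7 TPM against 27.9, 17.1 and 43.3 TPM. For Myf6 and Myog the highest library was LIGHT 3 and the groups overlapped. Myod1, the myogenic master factor, was at 4.50, 3.61 and 2.93 TPM against 5.91, 6.66 and 9.50 TPM and rose (log2 fold change 0.83, SE 0.19, limma adjusted p = 0.0196). Pax7, the marker of satellite cells, the stem cells of muscle, did not exceed 0.09 TPM. Of 8 tested regulators Myod1 rose and 0 fell, a share near that of all genes (17.7% higher and 5.41% lower), and Mef2c was the 1 with LIGHT 2 as its highest LIGHT library. In the list of embryonic and denervation genes Chrna1 and Gadd45a, of 9 tested, rose and 0 fell, which is also near the share of all genes. Myl4, an embryonic and atrial light chain, was at 103, 56.7 and 47.5 TPM against 91.7, 70.8 and 111 TPM. In the muscle atrophy list Cish and Foxo1, of 9 tested, rose and Foxo3 fell, from 21.1 ± 1.28 to 13.7 ± 1.30 TPM (limma adjusted p = 0.00754). These 3 calls stand against 17.7% higher and 5.41% lower among all genes, and nothing particular to the list is read from them. Mt1 and Mt2, the metallothioneins of that list, were each above 2000 TPM in all 6 libraries and missed the threshold. These genes are also expressed outside muscle. Of the slow or cardiac isoforms outside the set, 9 of 15 were tested. Tnni3 rose and Nppb, a natriuretic peptide, fell from 161 ± 128 to 42.7 ± 14.9 TPM (limma adjusted p = 0.0473).

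Markers of other tissue components, summed by list, ordered the libraries differently from muscle. The 6 red blood cell markers in the table summed to 70, 453 and 86.8 TPM in control tumours and 119, 2086 and 896 TPM in LIGHT tumours. They shared the peak in LIGHT 2 but were lowest in control 1, and Slc4a1, the anion exchanger of red cells, did not exceed 0.03 TPM. The 8 fibroblast markers summed to 285 to 416 TPM in control tumours and 326 to 540 TPM in LIGHT tumours, and the 8 endothelial markers to 41.0 to 74.2 and 62.1 to 112 TPM. Control 1 was the highest control library in both sums, as in muscle, while LIGHT 3 was the highest of all. In the fibroblast sum, Dcn alone was at 163 TPM in LIGHT 2 and 239 TPM in LIGHT 3. By gene, LIGHT 2 was the highest of the 6 libraries in 5 of 8 fibroblast markers, against 13.7% of all genes. In the 8 endothelial markers that count was 0. The fibroblast sum thus does not give the order of most of its genes. The 10 nerve and Schwann cell markers summed to 17.9 to 24.5 TPM and 33.9 to 51.6 TPM, with control 1 lowest. Much of this was Cnp, at 4.98 to 6.59 and 15.5 to 16.0 TPM, and Mbp, at 5.43 to 8.62 and 8.33 to 16.7 TPM. Sox10 did not exceed 0.97 TPM and S100b 0.63 TPM, and Prx had means of 1.88 and 1.64 TPM. The 5 adipocyte markers summed to 58.4 to 114 TPM and 78.8 to 136 TPM, most of it Fabp4 at 35.6 to 120 TPM, with Lipe at 13.2 to 22.8 TPM and Adipoq, Pck1 and Cfd at or near 0. The 7 salivary gland markers summed to 12.4 to 16.8 TPM, mostly Amy1. The 8 tongue epithelium keratins summed to 29965 to 37173 TPM in control tumours and 30407 to 40446 TPM in LIGHT tumours, highest in control 3 and LIGHT 3. Within this sum the groups lay apart in opposite directions for Krt4 (means 3616 and 6917 TPM) and Krt14 (11421 and 8916 TPM). TPM do not show how much of the keratin RNA came from the injected carcinoma cells. The 7 T cell markers summed to 53.1, 125 and 62.4 TPM in control tumours and 237, 209 and 193 TPM in LIGHT tumours, a ratio of 2.66. Of these 7 genes 6 rose and 0 fell, against 17.7% and 5.41% of all genes tested, and control 1 had the lowest sum. The part of these components in the muscle values was not tested.

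The listed muscle genes took a small share of all TPM in each library. The 40 genes with the 43 other muscle genes held 0.904%, 0.552% and 0.589% of all TPM in control tumours and 0.86%, 1.51% and 1.05% in LIGHT tumours. Removing these 83 genes and rescaling multiplied other genes by factors between 1.0055 and 1.0153. Genes outside the 83 that followed the muscle profile, such as Tpm1, were not removed. The factors thus cover the 83 genes only, not all RNA of muscle.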

How the data were processed

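Bulk RNA-seq of 6 tongue tumour specimens was analysed. Ribosomal RNA was removed by RNase H or Ribo-Zero, per the labels' protocols. HISAT, Bowtie2 and the build GRCm38.p6 are named in the submitters' processing notes, while the quantifier is not given in the sources used here. Expression was deposited as TPM, 1 column per library, per the file headers. No 2 libraries were identical.

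The 40 genes, the other lists and the tests were chosen with earlier results of these data known. Genes reaching 1 TPM in 3 or more libraries were compared with limma 3.58.1 (R 4.3.3, trended eBayes, 2-sided) on log2(TPM + 1), adjusted by Benjamini-Hochberg over all 13167, with a threshold of 0.05. Some genes of these lists are not reported here and were left out of list counts and sums. A fold change on this scale understates that of low genes. The fit was tested on simulated data. Likeness is the root mean square distance between centred log2 profiles. Named with library values were the 5 most abundant genes per role, the myosin heavy chains, the 5 smallest p and the 5 farthest from the median profile. The 15 nearest outside genes were named, with library values for Tpm1. Some genes of the other lists were named too, not all of them with library values. Myoz1, Actn3, Atp2a1 and others outside this rule were named after their values were seen. Coordinates are from GENCODE M21 (GRCm38), which held all 40 genes. Alternatives were other pseudocounts (0.1, 0.5), no filter or one at 5 TPM, trimmed-mean (TMM) or quantile scaling, removal of muscle genes, a replicate block, untrended or robust eBayes and the omission of each library. Figures used matplotlib 3.10.9.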

Additional observations from a re-analysis of the deposited data

How the results depend on the processing

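No depth is known, so no counting interval can be given, and 3 libraries a group limit the precision. The cause of the shifts below was not tested. Of the 39 genes, 35 kept the sign of their change in every other setting that tested them, which was 16 settings, or 15 for Ampd1 and Jph1. Xirp2 changed from -0.01 to 0.19 with control 1 and LIGHT 2 both left out, and Myh2 and Dmd to -0.08 and -0.02 after quantile normalization. With libraries left out, singly or as that pair, Xirp2 ran from -0.15 to 0.19, Myh2 from -0.28 to 0.81 and Actn3 from -0.00 to 0.60. The count of muscle genes called higher, 3 as reported, was 1 without a filter on low values, 1 with TMM factors, 1 after quantile normalization, 0 to 21 with single libraries left out and 19 without control 1 and LIGHT 2. The count called lower was 0 in each of these settings, as was the number lower at an unadjusted p under 0.05. The median log2 fold change of the 39 genes was 0.48 with TMM factors and 0.49 after quantile normalization, where that of all genes moved from 0.09 to -0.04.

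Over all genes tested 2325 were called higher and 712 lower. After quantile normalization these counts were 1410 and 1813, and 2005 were lower with TMM factors, against 1637 higher. With single libraries left out they ran from 1145 to 1888 and from 314 to 773, and without control 1 and LIGHT 2 they were 1293 and 237. Removal of the muscle genes left 2392 higher and 710 lower. The replicate numbers were not treated as pairing the libraries. The deviations of same-numbered libraries correlated at 0.37, 0.24 and 0.01, and those of differently numbered libraries at -0.45 to 0.33. Deviations are taken from the group mean, so these values are not independent and do not decide whether libraries were paired. With the replicate block 3 muscle genes were again called higher, but Ryr1 and Cacna1s were not among them (adjusted p = 0.071 and 0.0788), while the slow troponin genes Tnnt1 and Tnni1 were (limma adjusted p = 0.0398 and 0.0414, from 0.115 and 0.0978 without it). With it 2325 and 907 of all genes were called higher and lower.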
